A study of Mus musculus with 47 samples.

Results

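The genes described here are 10 heat shock and chaperone genes, taken by symbol from the 55416 gene rows of brain RNA-seq tables of 3xTg mice. All 10 were found in the tables of both sexes and passed the filter on low counts. The 3xTg mouse carries mutant amyloid precursor protein and tau transgenes driven by a neuronal Thy1 cassette, together with a mutant presenilin knocked into its own locus, so every group shares these alleles and there is no non-transgenic group among the libraries. From 6 months of age, male and female homozygous 3xTg mice ate an amino acid-defined Control diet or 1 of 3 diets low in a single branched-chain amino acid, namely isoleucine (IleR), leucine (LeuR) and valine (ValR), and brains were taken after 9 months on diet. The libraries analysed were 14 of males (4 Control, 3 IleR, 3 LeuR and 4 ValR) and 23 of females (6 Control, 5 IleR, 6 LeuR and 6 ValR), and the other 10 male samples of the 47 labelled are not analysed here. Libraries are named by diet and the sample number in the labels, which say nothing of litters or pooling, so p-values measure only the spread between these libraries. The comparisons ask how restricting each branched-chain amino acid changed expression of the chaperone genes in each sex.

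Chaperones hold unfolded proteins, let them fold and pass those that fail to degradation. HSP70 proteins bind exposed stretches of a client under the control of J-domain proteins, which start the ATP cycle, and of nucleotide exchange factors, which end it, and HSP90 proteins act later on clients that are near their final shape. When unfolded proteins build up in the cytosol, heat shock factor 1 raises transcription of the inducible members, whereas stress inside the endoplasmic reticulum (ER) raises the ER chaperones through a separate set of factors. The inducible members also respond to temperature and neuronal activity, and in models of Alzheimer's disease chaperones are studied for their handling of tau and amyloid peptides.

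The 10 genes fall into 6 roles. Hspa1a and Hspa1b are neighbouring single-exon copies of the inducible cytosolic HSP70, at chr17:34969190-34972156 and chr17:34956436-34959238 on the minus strand of GRCm38. Hspa8 encodes the constitutive HSP70 and Hsp90aa1 the stress-responsive cytosolic HSP90. Dnajb1, a J-domain protein, Bag3, a nucleotide exchange factor that routes clients to autophagy, and Hsph1, a member of the HSP110 group of exchange factors, work with HSP70. Hspb1 is a small heat shock protein that holds unfolded clients without ATP. Hspa5 (BiP) and Hsp90b1 (GRP94) are the HSP70 and HSP90 of the ER.

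The promoters below show where the letters of the heat shock element and of the ER stress element stand in members that hold them, since these are the elements known for the cytosolic and the ER stress responses. RefSeq promoter windows on GRCm38.p6 (250 bases before to 50 bases after the start) were found for 8 of the 10 genes, all but Hspa8 and Hsp90aa1. The heat shock element was searched as GAANNTTC or TTCNNGAA, each of which reads the same on both strands, and the ER stress element as CCAAT and CCACG with any 9 bases between, on both strands. A heat shock element match occurs in 15.1% of 32851 mouse promoters of this length, and 1.96% hold at least 2. An ER stress element match occurs in 0.119% of them. Hspa1a, Hspa1b, Hsph1, Hspb1 and Bag3 held heat shock element matches, Hspa5 and Hsp90b1 held ER stress element matches, no gene held both, and Dnajb1 held neither. The Hspa1a and Hspa1b windows were identical at 296 of 300 bases, so only the latter is printed. The 150 bases before the start are given 5′ to 3′ along the gene, for Hspa1b (chr17:34959239-34959388, minus strand), Hsph1 (chr5:149636316-149636465, minus), Hspb1 (chr5:135887769-135887918, plus), Hspa5 (chr2:34771940-34772089, plus) and Hsp90b1 (chr10:86705445-86705594, minus). Capitals mark the matches within these bases.
Hspa1b: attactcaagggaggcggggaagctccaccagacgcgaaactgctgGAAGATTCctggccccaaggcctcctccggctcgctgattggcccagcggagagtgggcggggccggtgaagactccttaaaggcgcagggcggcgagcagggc
Hsph1: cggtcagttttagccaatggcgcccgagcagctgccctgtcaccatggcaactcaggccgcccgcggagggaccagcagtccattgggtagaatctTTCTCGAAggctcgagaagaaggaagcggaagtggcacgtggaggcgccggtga
Hspb1: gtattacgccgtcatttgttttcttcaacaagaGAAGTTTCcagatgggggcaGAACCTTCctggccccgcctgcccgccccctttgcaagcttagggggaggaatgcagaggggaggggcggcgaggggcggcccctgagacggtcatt
Hspa5: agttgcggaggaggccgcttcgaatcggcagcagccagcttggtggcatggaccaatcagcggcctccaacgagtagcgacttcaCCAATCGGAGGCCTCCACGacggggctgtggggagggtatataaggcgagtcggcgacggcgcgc
Hsp90b1: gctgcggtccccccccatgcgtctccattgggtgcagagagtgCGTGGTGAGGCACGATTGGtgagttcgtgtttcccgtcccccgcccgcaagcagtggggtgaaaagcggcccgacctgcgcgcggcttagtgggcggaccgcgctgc
Of the 3 matches in the Hsph1 window and the 2 in that of Hsp90b1, 1 of each lies in the bases printed, and the single Bag3 match starts at base 43 after the start. A match describes letters and does not show binding.

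Total expected counts ranged from 12682687 to 25722333 in the male libraries and from 10672599 to 21370973 in the female libraries, and the lowest count of any member in any library was 60, for Hspa1b. Pan-neuronal markers were abundant in every library, at a summed level of 3264 CPM or more in males and 3415 CPM or more in females, whereas 6 liver genes, checked because a protocol label names liver, summed to at most 10.9 CPM. The regional make-up of the brain RNA differed between libraries. In Control males, 8 cerebellar markers summed to between 26.6 and 88.7 CPM, and in restricted males to between 221.6 and 4014 CPM. Over 8 forebrain markers the sums were 1037 to 2988 CPM in Control males and 16.4 to 433.0 CPM in restricted males. A hindbrain score, the mean log2 CPM of the cerebellar and of 8 brainstem and spinal cord markers minus that of the forebrain markers, lay between -8.14 and -4.90 in the 4 Control males and between -4.09 and 6.09 in the 10 restricted males, so these groups did not overlap. The male library nearest to Control was LeuR 21, at -4.09. In females the score ran from -8.13 to 5.24, with medians of -5.70 in Control, -6.43 in IleR, -5.94 in LeuR and -5.52 in ValR. Bulk RNA cannot tell fewer cells of a type or region from less RNA per cell, and in males the diet and the region sampled cannot be told apart.

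Set on a scale of CPM per kilobase of exon, Hspa8 was the most abundant of the 10, at 437.4 ± 46.9 in males (SD, n = 14) and 433.3 ± 35.9 in females (SD, n = 23). Hsp90aa1 followed at 242.6 ± 31.6 and 244.6 ± 23.4, and the ranges of these 2 genes did not overlap each other or the next gene in either sex. The ER chaperones came next, Hsp90b1 at 92.5 ± 10.9 and 88.5 ± 8.74 and Hspa5 at 72.5 ± 15.6 and 70.1 ± 13.8 in males and females. Their ranges overlapped, but Hsp90b1 was above Hspa5 in 13 of 14 male and 22 of 23 female libraries. Hsph1 came after them, at 32.5 ± 11.5 and 39.6 ± 10.2. The other 5 genes were below 16 CPM per kilobase on average in both sexes, and their order was not fixed. In males Hspb1 was above Dnajb1 in 8 of 14 libraries and Dnajb1 above Bag3 in 7 of 14, and in females Bag3 was above Hspa1b in 9 of 23. Hspa1a and Hspa1b stood lowest in males, at 5.08 ± 2.09 and 4.08 ± 3.52, with Hspa1a higher in 10 of 14 libraries.

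The counts of some members rest on reads that could be split between copies. Of the 50-base stretches in the transcripts of Hspa1a and Hspa1b, 60.3% and 62.3% also occur in other genes, mostly in each other, and the expected counts of both were fractional in all 37 libraries. For Hspb1 the share was 48.8% (a pseudogene, Hsp25-ps1), for Hsp90aa1 47.5% and for Hspa8 38.6%. The levels of these 5 genes are therefore uncertain between copies, while Bag3, Hsph1 and Hspa5 shared no such stretch and Dnajb1 0.38% and Hsp90b1 2.96%. On the opposite strand, Hspa1a also overlaps Gm20481 and Hsp90b1 overlaps 1810014B01Rik. Genes on the same strand lie within the spans of Bag3 (2610306O10Rik), Hspa8 (Snord14c, Snord14d and Snord14e) and Hsp90b1 (Gm15344 and Gm25745).

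In IleR-fed males, 4 of the 10 genes were lower than in Control-fed males and 1 was higher. The inducible HSP70 genes fell the most, and Hsph1 and Dnajb1, both partners of HSP70, fell as well, whereas Bag3 rose. In edgeR's quasi-likelihood fit with Benjamini-Hochberg adjustment, 6.63% of the 22197 genes tested were called higher and 8.68% lower at an adjusted p under 0.05. The median log2 fold change of the 10 genes was -0.25, against 0.04 over all genes.

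Hspa1b was at 37.4, 27.2, 9.87 and 18.8 CPM in Control males 1, 3, 4 and 5. It was at 7.57, 3.96 and 7.47 CPM in IleR males 13, 14 and 17. Every IleR library lay below every Control library, although the Control libraries themselves spread over 3.79-fold. The log2 fold change was -1.89 (SE 0.47, adjusted p = 0.0160). Hspa1a was at 28.5, 25.9, 19.7 and 17.7 CPM in the Control males and at 12.8, 10.0 and 11.8 CPM in the IleR males. The groups were again separate, with a log2 fold change of -0.995 (SE 0.21, adjusted p = 0.00658). With the counts of both copies added, so that no read is split between them, the log2 fold change was -1.38 and the adjusted p 0.00759.

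Hsph1 was at 409.1, 371.3, 242.4 and 296.7 CPM in the Control males and at 217.1, 180.6 and 162.3 CPM in the IleR males. No IleR library reached the lowest Control library, and the log2 fold change was -0.82 (SE 0.18, adjusted p = 0.00836). Dnajb1 was at 52.1, 57.5, 46.8 and 51.8 CPM against 42.6, 36.4 and 41.9 CPM. This was a smaller but separate shift, of -0.37 on the log2 scale (SE 0.11, adjusted p = 0.0306). Bag3 moved the other way, from 11.7, 14.5, 14.7 and 18.6 CPM in the Control males to 32.8, 27.6 and 34.1 CPM in the IleR males, a log2 fold change of 1.08 (SE 0.27, adjusted p = 0.0169).

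The remaining 5 genes did not pass the test in IleR males. Hsp90aa1 had a log2 fold change of -0.28 (adjusted p = 0.106), with all 3 IleR libraries, at 775.5 to 912.0 CPM, below the Control range of 980.8 to 1061 CPM. Hspa8 was also below Control in all 3, at -0.17 (adjusted p = 0.353). Hspb1, Hspa5 and Hsp90b1 were at 0.40, -0.23 and -0.11 on the log2 scale (adjusted p = 0.514, 0.437 and 0.616) and overlapped Control. Leaving out 1 library at a time left 3 to 5 genes called, with 3 called without Control 1, IleR 14 or IleR 17. The Hspa1a and Hsph1 calls held in each of the 14 such fits, but all 5 calls were lost with the hindbrain score as a covariate, where Bag3 (-0.33) and Dnajb1 (0.0557) changed sign. The lowest unadjusted p of any member in that covariate fit was 0.158 (edgeR). Hspa1b lost its call without IleR 14 (adjusted p = 0.0824), Bag3 without Control 1, IleR 13 or IleR 17 (adjusted p up to 0.0707) and Dnajb1 without Control 1, 3 or 5 or IleR 14 or 17 (adjusted p up to 0.146).

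In ValR-fed males 5 of the 10 genes were called lower and 1 higher than in Control. Hsph1 and Hspa1a fell with the lowest adjusted p-values, and Hspa5, the ER HSP70, was called lower here. Over all genes 11.1% were called higher and 12.4% lower, and the median log2 fold change of the 10 genes was -0.38 against 0.03 over all.

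Hsph1 was at 172.2, 140.6, 184.8 and 137.7 CPM in ValR males 7, 9, 10 and 12, each below the lowest Control library. Its log2 fold change was -1.05 (SE 0.17, adjusted p = 0.000631). Hspa1a was at 9.57, 9.24, 12.3 and 10.0 CPM in these libraries, which lie within 1.33-fold of each other and below the Control males. Its log2 fold change was -1.16 (SE 0.19, adjusted p = 0.000851). Hspa1b was at 4.32, 5.33, 13.0 and 5.86 CPM, and ValR 10 overlapped Control. The log2 fold change was -1.70 (SE 0.42, adjusted p = 0.0102), and with both copies added -1.41 (adjusted p = 0.00216). Dnajb1 was at 37.3, 35.1, 40.6 and 34.3 CPM, all below Control, with a log2 fold change of -0.50 (SE 0.10, adjusted p = 0.00246).

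Bag3 was at 38.5, 37.0, 36.9 and 29.5 CPM in the ValR males, all above the highest Control library of 18.6 CPM, with a log2 fold change of 1.25 (SE 0.26, adjusted p = 0.00337). Hspa5 was at 486.4, 350.1, 284.3 and 324.5 CPM in the Control males and at 244.0, 212.6, 300.5 and 257.4 CPM in the ValR males. ValR 10 lay inside the Control range, and the log2 fold change was -0.51 (SE 0.16, adjusted p = 0.0377). Among the other 4 genes, Hsp90aa1 was at -0.26 (adjusted p = 0.0880), Hspa8 at -0.24 (0.127), Hsp90b1 at -0.23 (0.170) and Hspb1 at 0.71 (0.154) on the log2 scale. Leaving out 1 library at a time left 5 to 7 genes called. The Hspa5 call was lost without Control 1, Control 3, ValR 7, ValR 9 or ValR 12 (adjusted p up to 0.124), and the other 5 calls held in all 14 fits. With the hindbrain score described above as a covariate all 6 calls were lost, and the log2 fold changes of Bag3 (-0.47), Dnajb1 (0.0159), Hspa1a (0.0201) and Hspa1b (0.34) changed sign. The lowest unadjusted p of any member in that covariate fit was 0.230 (edgeR).

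In LeuR-fed males, 1 gene was lower and 1 higher. Over all genes 3.81% were called higher and 6.33% lower, and the median log2 fold change of the 10 genes was -0.05 against 0.05 over all. Hspa1b was at 4.43, 7.53 and 7.62 CPM in LeuR males 19, 20 and 21, all below Control, with a log2 fold change of -1.84 (SE 0.47, adjusted p = 0.0270). Bag3 was at 43.9, 39.6 and 15.2 CPM, so that the first 2 libraries were far above Control and LeuR 21 lay within it. The log2 fold change was 1.14 (SE 0.27, adjusted p = 0.0206). Hspa1a was at 11.0, 13.4 and 18.9 CPM, at a log2 fold change of -0.67 (adjusted p = 0.0561), and with both copies added the value was -1.14 (adjusted p = 0.0279).

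The other genes did not pass the test in LeuR males. Hsph1 was at -0.32 (adjusted p = 0.266), Dnajb1 at -0.12 (0.515), Hsp90aa1 at 0.08 (0.703), Hspa8 at 0.02 (0.933), Hsp90b1 at 0.02 (0.944) and Hspa5 at -0.26 (0.369) on the log2 scale. Hspb1 was at 27.8, 20.4 and 8.58 CPM, following the pattern of Bag3 over these 3 libraries, and had a log2 fold change of 0.73 (adjusted p = 0.217). Both calls were lost without Control 1, Control 3, LeuR 19 or LeuR 20 (adjusted p up to 0.121 for Hspa1b and 0.112 for Bag3) and in a fit of only these 2 diets, that of Bag3 also with limma voom, and both with the hindbrain score as a covariate, where Bag3 (-0.012) changed sign. The lowest unadjusted p of any member in that covariate fit was 0.218 (edgeR). Without LeuR 21, 4 genes were called, with Hspa1a at -0.89 (adjusted p = 0.0142) and Hspb1 at 1.10 (0.0338) added to Hspa1b at -1.96 (0.0350) and Bag3 at 1.51 (0.000665).

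**Figure D1:**
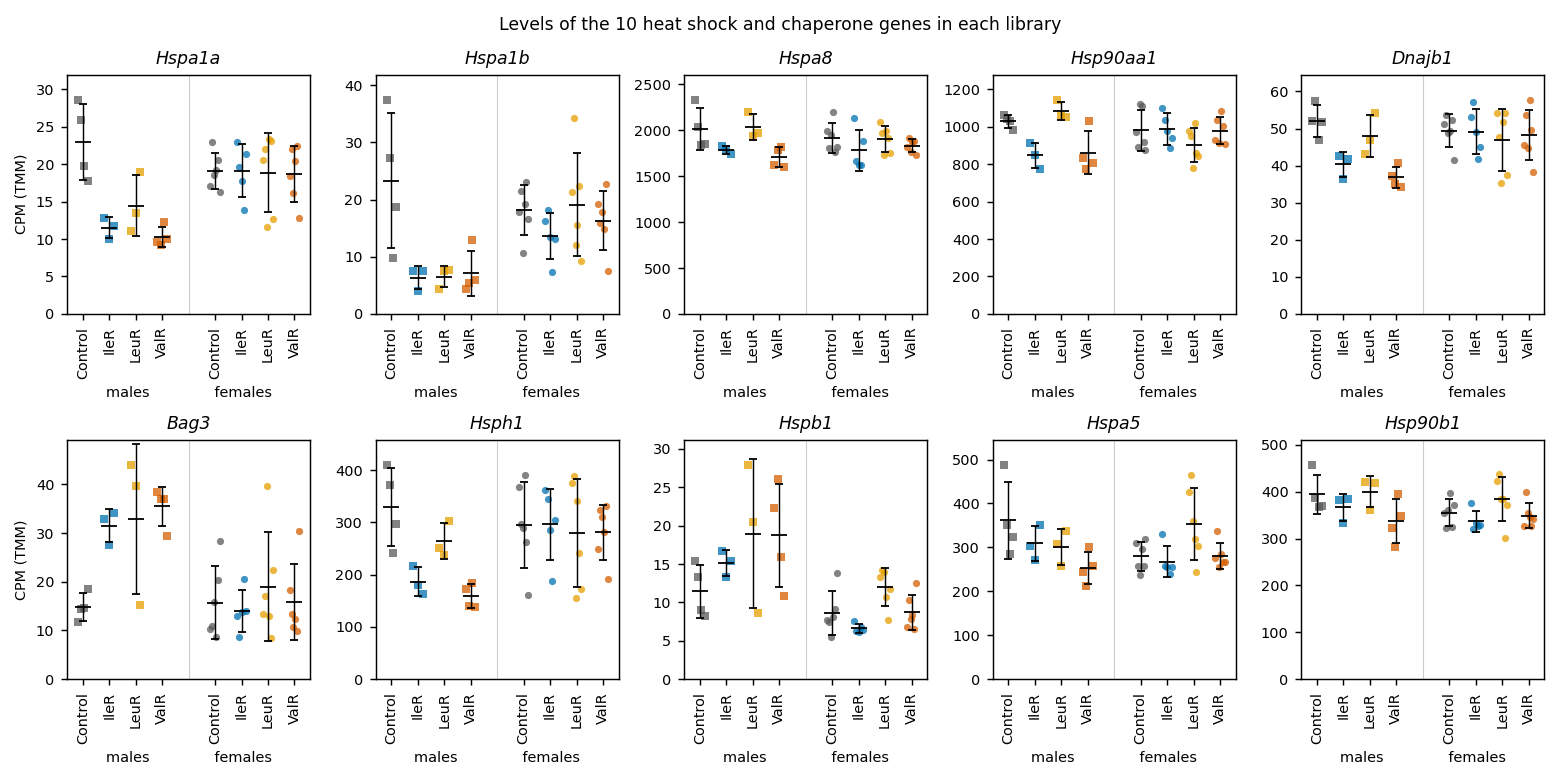
Level of each of the 10 genes in each library, in CPM after TMM normalization (y axis from 0, own scale per panel), by diet (x axis), with squares for the 14 male and circles for the 23 female libraries; bars give the mean ± SD of a group. In males Bag3 rose from 11.7 to 18.6 CPM in Control to 27.6 CPM or more in IleR and ValR, while Hspa1a, Hsph1 and Dnajb1 were lower in IleR and ValR than in every Control library; in females each restricted diet overlapped Control for every gene.

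The restricted diets were also compared with each other, first in males. Hsph1 was lower in ValR than in LeuR, with a log2 fold change of -0.73 (SE 0.18, adjusted p = 0.0491). Of all genes 1.73% were called higher and 1.03% lower in this comparison. Hsph1 was at 251.1, 237.5 and 302.7 CPM in the LeuR males, so every ValR library was below every LeuR library. The call was lost in 10 of the 14 fits that left out 1 library, with an adjusted p of up to 0.156 and a log2 fold change between -0.81 and -0.63. The libraries whose omission ended it were Control 1, 3 and 5, IleR 13 and 14, LeuR 19 and 21 and ValR 7, 10 and 12. Dnajb1 and Hsp90aa1 were at -0.38 (adjusted p = 0.0589) and -0.33 (0.0943). No member was called between IleR and LeuR or between ValR and IleR by edgeR, limma voom or DESeq2, with 3 and 0 members at an unadjusted p under 0.05 in edgeR. Over all 22197 genes edgeR called 0% in either comparison, with 11.3% and 2.83% at an unadjusted p under 0.05.

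In females, no member was called in any comparison by edgeR, limma voom or DESeq2. Against Control, edgeR called 0% of the 20344 genes higher and 0% lower under each of the 3 diets. Unadjusted p-values under 0.05 occurred for 0 members in IleR, 2 in LeuR and 0 in ValR, against 2.84%, 4.03% and 3.82% of all 20344 genes. The log2 fold changes ran from -0.42 (Hspa1b, IleR) to 0.47 (Hspb1, LeuR). Between the restricted diets 3, 0 and 2 members had an unadjusted p under 0.05 for IleR against LeuR, ValR against IleR and ValR against LeuR. Over all genes 6.14%, 4.16% and 4.98% had one and 0% were called in each. The lowest was that of Hspb1 for IleR against LeuR, at a log2 fold change of -0.85 (SE 0.21, adjusted p = 0.401), where all 5 IleR libraries (6.19 to 7.54 CPM) lay below all 6 LeuR libraries (7.71 to 14.2 CPM).

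Female libraries nevertheless differed widely from each other within diets. Hspa1b ranged from 7.33 to 34.3 CPM over the 23 females, with a median of 16.6. Bag3 ranged from 8.43 to 39.7 CPM with a median of 13.5, and Hsph1 from 155.0 to 391.1 CPM with a median of 297.6. For Bag3 the highest library of a diet was 3.25 times the lowest in Control, 2.36 in IleR, 4.71 in LeuR and 3.11 in ValR. The constitutive and most abundant members varied least, at a coefficient of variation of 8.29% for Hspa8 and 9.55% for Hsp90aa1 over all females, against 48.3% for Bag3 and 35.4% for Hspa1b.

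The 2 members with an unadjusted p under 0.05 in LeuR females were Hspa5 and Hspb1. Hspa5 had a lowest, median and highest level of 243.5, 340.3 and 464.0 CPM in LeuR and of 237.4, 277.4 and 320.1 CPM in Control females. The 3 highest LeuR libraries were above every Control library and the other 3 were within the Control range, at a log2 fold change of 0.34 (SE 0.13, adjusted p = 0.968). Hspb1 had 7.71, 12.5 and 14.2 CPM in LeuR and 5.53, 7.90 and 13.9 CPM in Control, at 0.47 (SE 0.19, adjusted p = 0.968). In the same comparison 5 choroid plexus markers had a median log2 fold change of 2.35, with 2 of 5 at an unadjusted p under 0.05, and summed to 7.91 to 2259 CPM in LeuR and 9.09 to 708.1 CPM in Control females, and their part in these values was not tested.

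The difference in diet response between the sexes was tested in 1 model of all 37 libraries. Because Control and restricted males did not overlap in the hindbrain score, diet and region sampled cannot be told apart in this difference. Hspa1a fell further under ValR in males than in females, by 1.15 on the log2 scale (SE 0.27, adjusted p = 0.0186), the only member called. For this difference 0.677% of 22465 genes were called higher and 3.57% lower. The call was lost without Control male 1, Control male 3 or ValR male 12 (adjusted p up to 0.0536), with limma voom (0.0520) and with the hindbrain score as a covariate, while 5 members were called without ValR female 36, 3 without Control male 4, and 2 without Control female 28 or LeuR female 45. Under IleR (0% higher and 0.0979% lower over all genes) and LeuR (0.00445% and 0%), edgeR called 0 members, with 6 and 3 at an unadjusted p under 0.05, against 19.1% and 13% of all 22465 genes. For IleR 1 member, Hspa1a, was called without Control male 4, IleR female 41 or LeuR female 45, and for LeuR 1, Hspa1b, without Control male 4. DESeq2 called 1 member in each of these and 4 under ValR, and limma voom 0 in all 3.

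**Figure D2:**
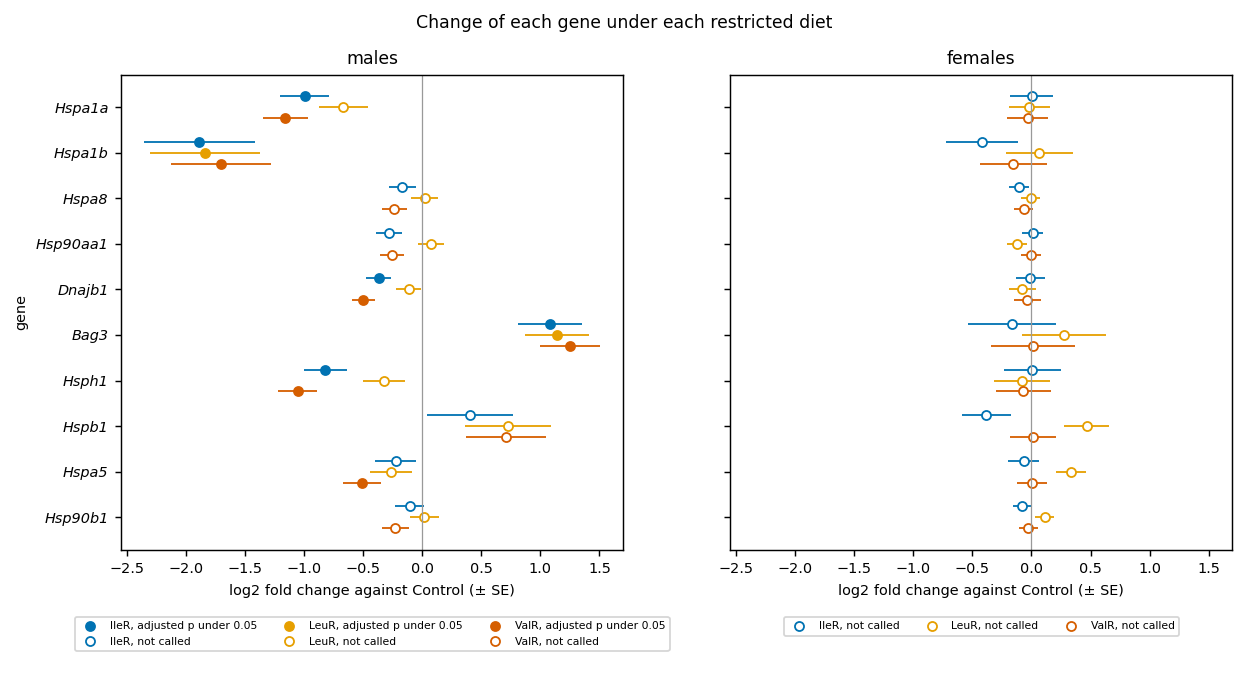
Log2 fold change of each gene against Control (x axis, ± SE from edgeR) under IleR, LeuR and ValR, in males (left) and females (right); filled points have an adjusted p under 0.05. In males Hspa1b lies between -1.89 and -1.70 and Bag3 between 1.08 and 1.25 under the 3 diets, and in females no point is filled.

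Across the female libraries the members moved with the hindbrain score. In an edgeR fit of the 23 females with diet and score as terms, chosen after the data were seen, 7 of 10 members changed with the score, 6 falling and 1 rising. This is a broad axis, along which 21.9% of the 20344 genes rose and 23.8% fell. Bag3 rose by 0.15 log2 units per unit of score (SE 0.01, adjusted p = 2.86e-08). Hsph1 fell by 0.11 (SE 0.01, adjusted p = 1.77e-07), Hspa1b by 0.10 (SE 0.02, adjusted p = 0.00143), Hspa1a by 0.07 (SE 0.01, adjusted p = 7.37e-05) and Dnajb1 by 0.04 (SE 0.01, adjusted p = 0.000114). Hspa8 and Hsp90aa1 fell by 0.02 each (adjusted p = 0.0185 and 0.0170). Without LeuR 45, the female library with the highest score, the call for Hsp90aa1 was lost (adjusted p = 0.0808) and the other 6 held. The ER chaperones Hspa5 (adjusted p = 0.561) and Hsp90b1 (0.748) and the small heat shock protein Hspb1 (0.0803) were not called.

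The 7 genes include 5 of the 6 called in ValR males, all but Hspa5. For Bag3, the 5 female libraries of highest score, LeuR 45, Control 30, ValR 36, LeuR 48 and IleR 41, were at 39.7, 28.4, 30.5, 22.4 and 20.5 CPM. These are the 5 highest Bag3 levels of the females, with Control 29 close behind at 20.3 CPM. For Hsph1 the same 5 libraries were at 155.0, 161.8, 192.7, 172.7 and 188.6 CPM, the 5 lowest of the females. They come from all 4 diets, Control included.

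Values from both sexes can be set side by side on this axis. The mean score was higher than in Control males by 10.3 in IleR, 7.50 in LeuR and 12.4 in ValR. For ValR, the female slope times that difference comes to -1.32 for Hsph1, -0.86 for Hspa1a, -0.54 for Dnajb1, 1.89 for Bag3, -1.19 for Hspa1b and -0.12 for Hspa5, beside male log2 fold changes of -1.05, -1.16, -0.50, 1.25, -1.70 and -0.51. For IleR, the products for the same genes are -1.09, -0.71, -0.45, 1.56, -0.99 and -0.10, beside -0.82, -0.995, -0.37, 1.08, -1.89 and -0.23. For LeuR, they are -0.80, -0.52, -0.33, 1.14, -0.72 and -0.08, beside -0.32, -0.67, -0.12, 1.14, -1.84 and -0.26. The Hspa1b product was smaller in size than the male value under each diet, the Hsph1 product was larger in size under each, and under LeuR the signs differed for 3 members, Hsp90aa1 (-0.16 beside 0.08), Hspa8 (-0.15 beside 0.02) and Hsp90b1 (-0.03 beside 0.02). The part of the score in the male differences was not tested. When the score was added to the male fit, 0 of the 10 members were called under any diet, with adjusted p-values of 0.729 to 0.998 and 0 members at an unadjusted p under 0.05. In that fit 0 to 11 of all genes were called against Control.

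Within the 10 restricted males, a fit with diet and score called 0 members by edgeR, with 3 at an unadjusted p under 0.05, and 0.0137% of 21878 genes rose and 0.242% fell. Bag3 had a slope of 0.16 (SE 0.04), Hspa1a of -0.09 (SE 0.03) and Hspb1 of 0.18 (SE 0.06), with adjusted p-values of 0.118, 0.174 and 0.192. Without LeuR 21 these slopes were 0.03 (SE 0.04), -0.08 (SE 0.05) and 0.08 (SE 0.10). With no diet term, log2 CPM of Hspa1a correlated with the score at Pearson's r = -0.92 (permutation p = 0.00094, unadjusted) and Spearman's rho = -0.76 (p = 0.0145), Dnajb1 at r = -0.86 (p = 0.00196) and rho = -0.62 (p = 0.0598), and Hsph1 at r = -0.74 (p = 0.00868) and rho = -0.48 (p = 0.166). Of the other 7 members, Bag3 had r = 0.75 (permutation p = 0.0458, rho = 0.44, p = 0.204) and the rest a permutation p of 0.0905 or more, among 20 relations computed. Without the 2 libraries farthest from the median score, r was -0.62 for Hspa1a, -0.46 for Dnajb1, -0.32 for Hsph1 and 0.37 for Bag3. Over all 10 restricted males after subtraction of diet means, r was -0.85 for Hspa1a (permutation p = 0.00239, unadjusted) and -0.70 for Dnajb1 (permutation p = 0.0162). It was 0.84 for Bag3 (permutation p = 0.00904) and 0.74 for Hspb1 (permutation p = 0.0131). For Hsph1 it was -0.40 (permutation p = 0.289), and the remaining members had a permutation p of 0.1898 or more. LeuR 21, whose score lay nearest to Control, was the restricted male with the lowest Bag3 level and the highest Hspa1a and Hsph1 levels.

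**Figure D3:**
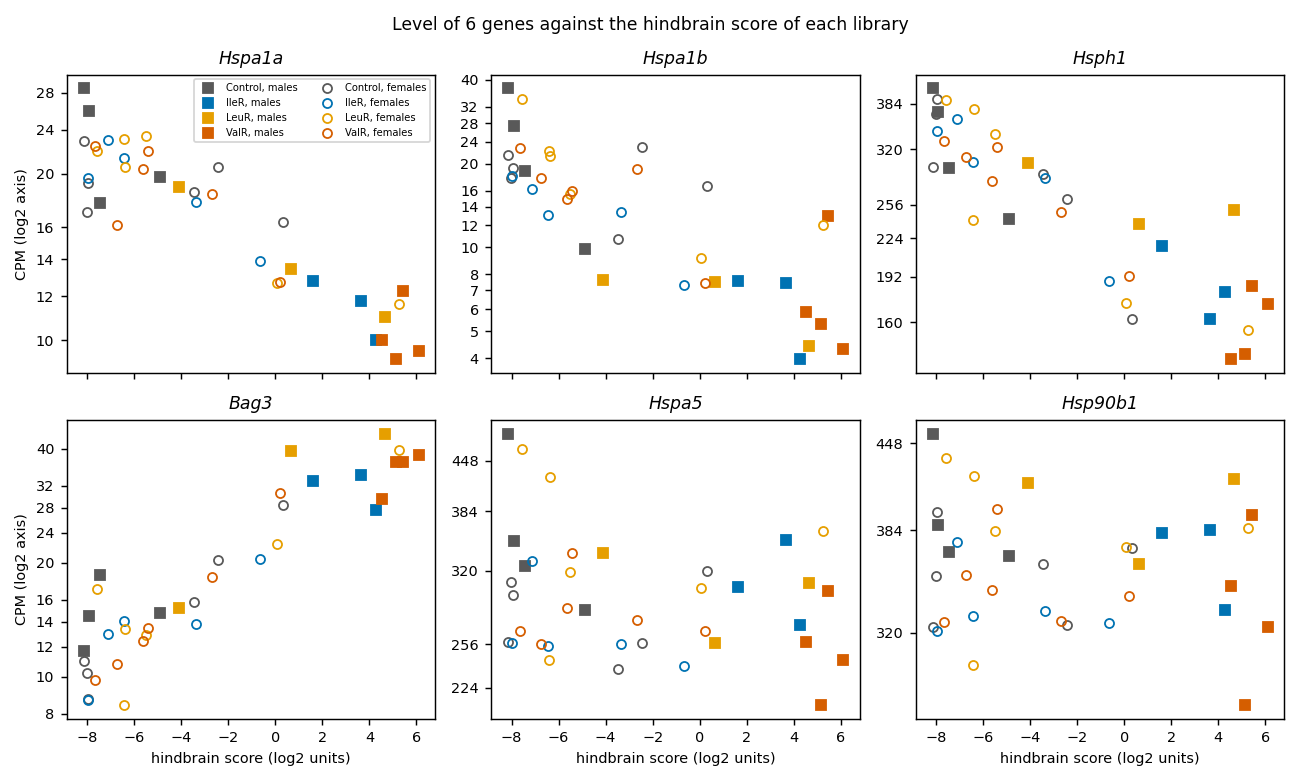
Level of 6 genes in CPM (y axis, log2 scale) against the hindbrain score of each library (x axis, in log2 units), with filled squares for males and open circles for females, coloured by diet. With a slope shared by the 4 diets, Bag3 rises and Hspa1a, Hspa1b and Hsph1 fall with the score in females. Slopes of single diets were not tested. The restricted males sit at scores of -4.09 to 6.09 and Control males at -8.14 to -4.90, and Hspa5 and Hsp90b1 show no slope past the test in females.

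The members covaried in overlapping sets. Over the 23 females, 23 of the 45 pairs had a Pearson correlation of log2 CPM past an adjusted p of 0.05 in a permutation test with 100000 resamples, two-sided and adjusted over the 45 pairs, 18 positive and 5 negative. Of all pairs of 13887 expressed genes, 14.3% had an r of 0.478 or more, the weakest among the called pairs, and 13.8% an r of -0.478 or less.

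All pairs among Hspa1a, Hspa1b, Dnajb1, Hsph1 and, with the opposite sign, Bag3 were called. In the same females these genes had an r of -0.80, -0.62, -0.80, -0.90 and 0.92 with the hindbrain score. The part of the score in these pairs was not tested. Hspa1a and Dnajb1 had an r of 0.86 and a Spearman's rho of 0.72 (adjusted p = 0.000225 and 0.00236, permutation test), and r was 0.76 without the 2 libraries farthest from the median of Hspa1a. Dnajb1 and Bag3 had an r of -0.79 and a rho of -0.72 (adjusted p = 0.00045 and 0.0018, permutation test), and r was -0.70 without the 2 farthest libraries. Hspa1a and Hspa1b, which share most of their sequence, had an r of 0.70 and a rho of 0.55 (adjusted p = 0.0008 and 0.0279, permutation test), and r was 0.68 without the 2 farthest libraries.

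The most abundant cytosolic genes were tied to several of these. Hsp90aa1 had an r of 0.74 with Hsph1 and a rho of 0.71 (adjusted p = 0.000514 and 0.00243, permutation test), 0.72 without the 2 farthest libraries, and was also called with Hspa1a (0.56), Dnajb1 (0.66), Hspa8 (0.54) and Bag3 (-0.57). Hspa8 was called with Hspa1a (0.53) and Hsph1 (0.61) and also with both ER chaperones, at an r of 0.55 with Hsp90b1 and of 0.48 with Hspa5. By rho, the pairs Hspa1a with Hsp90aa1 and Hspa8 with Hspa5 did not pass (0.42 each, adjusted p = 0.1025 and 0.0971, permutation test). Without the 2 farthest libraries, r of Hspa1a and Hsp90aa1 was 0.32.

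The ER chaperones Hspa5 and Hsp90b1 had an r of 0.88 and a rho of 0.77 (adjusted p = 0.000225 and 0.0018, permutation test) and an r of 0.79 without the 2 farthest libraries. After subtraction of diet means r was 0.85 in females and 0.91 in the 14 males. Hspb1, a cytosolic protein, went with them in females, at an r of 0.66 with Hsp90b1 and of 0.76 with Hspa5 and a rho of 0.73 (adjusted p = 0.00045 and 0.0018, permutation test), 0.68 without the 2 farthest libraries. Hspb1 was also called with Bag3, at an r of 0.57 and a rho of 0.40 (adjusted p = 0.01035 and 0.1118, permutation test). In males, after subtraction of diet means, r of Hspb1 and Hspa5 was -0.01, and the difference between the sexes was not tested. Hspa5 had an r of 0.06 with Hspa1a in females (rho 0.08, adjusted p = 0.861 and 0.765, permutation test) and of 0.69 in males after subtraction of diet means (adjusted p = 0.0313, permutation test).

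**Figure D4:**
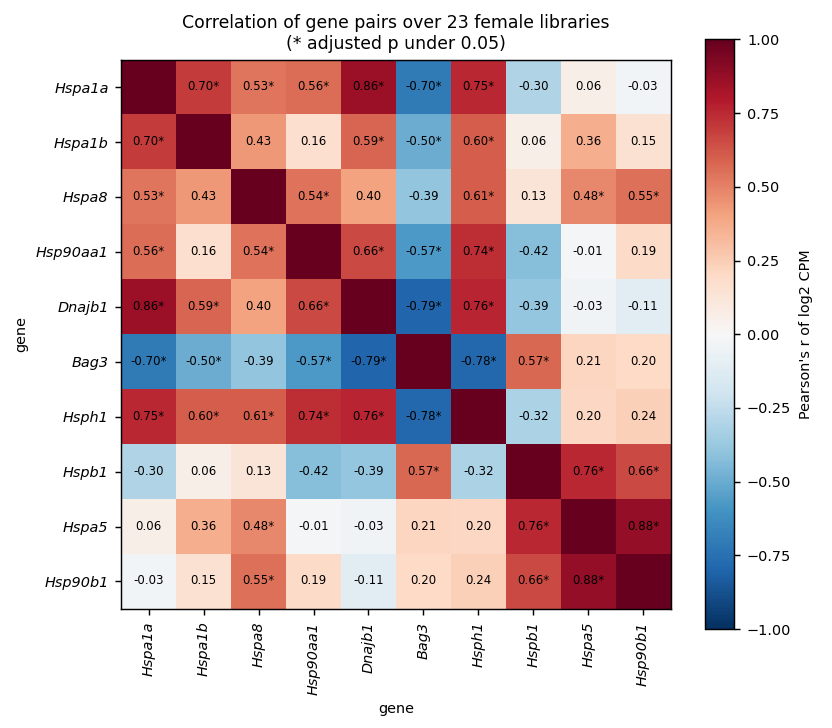
Pearson's r of log2 CPM for each pair of the 10 genes (both axes) over the 23 female libraries, from -1 (blue) to 1 (red), with an asterisk at an adjusted p under 0.05. Hspa1a, Hspa1b, Dnajb1 and Hsph1 correlate at 0.59 to 0.86 with each other and at -0.79 to -0.50 with Bag3, and Hspa5 and Hsp90b1 at 0.88.

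Over the 23 females, the 5 genes whose log2 CPM was most like that of Hspa5, of 13886 others that averaged a log2 CPM of 1 or more, were Pdia4 (r = 0.93), Manf (0.90), Calr (0.90), Creld2 (0.89) and Hsp90b1 (0.88). All encode proteins that fold or reside in the ER lumen, and Calr and Creld2 hold the ER stress element letters in their promoter windows. In the list of 17 other ER folding genes, 5 of the 14 with a promoter entry held a match. The 5 genes most like Hspa1b were Zfand3 (r = 0.85), Otub2 (0.81), Copz1 (0.80), Fars2 (0.80) and Taf10 (0.80). Hspa1a was 125th in that order and Hsph1 777th, so no other member was among the closest genes to Hspa1b. These correlations share libraries, depth and region make-up.

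The wider chaperone network was read through 80 other genes in 9 lists. In IleR males 4 of the 80 rose and 11 fell, in LeuR males 4 rose and 5 fell, and in ValR males 5 rose and 22 fell. Over all genes 6.63% rose and 8.68% fell under IleR, 3.81% and 6.33% under LeuR and 11.1% and 12.4% under ValR, and the counts of each list below are to be read against these shares. Their median log2 fold changes were -0.12, 0.01 and -0.13, against 0.04, 0.05 and 0.03 over all genes. None was called in females by edgeR, with 1, 5 and 0 of the 80 at an unadjusted p under 0.05 under IleR, LeuR and ValR, against 2.84%, 4.03% and 3.82% of all genes. With the hindbrain score in the male fit, 2, 11 and 0 of all genes were called under IleR, LeuR and ValR. No call under ValR given below was thus kept in that fit.

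J-domain genes, HSP70 family genes and genes of the BAG and exchange factor list were among those that fell. Of 11 other J-domain genes, 5 fell under IleR and 5 under ValR, and 1 rose and 1 fell under LeuR. Dnajb5 fell under all 3 diets, by 1.60, 1.55 and 1.54 on the log2 scale for IleR, LeuR and ValR (adjusted p = 0.00311, 0.00818 and 0.00108). Of 10 other HSP70 family genes, 1, 0 and 2 rose and 2, 1 and 4 fell. Hspa2, an HSP70 best known from the testis, fell by 0.77, 0.52 and 0.98 (adjusted p = 0.00331, 0.0345 and 0.000255), and Hspa4l, of the HSP110 group like Hsph1, rose by 0.46 under ValR (adjusted p = 0.0103). Of 6 other BAG and exchange factor genes, 2, 1 and 2 fell.

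Of 14 HSP90 family and cochaperone genes, 1 rose under IleR, 2 under LeuR and 1 under ValR, and 0, 0 and 2 fell. Fkbp4, an immunophilin that binds HSP90, rose under each diet, by 0.40, 0.45 and 0.46 on the log2 scale (adjusted p = 0.0141, 0.0145 and 0.00258), and Stip1, which bridges HSP70 and HSP90, rose by 0.37 under LeuR (adjusted p = 0.0307). No chaperonin gene of 10 was called by edgeR under any diet, with 0, 6 and 1 at an unadjusted p under 0.05 for IleR, LeuR and ValR, against 29.6%, 27% and 35.2% of all genes. Of 4 heat shock factor regulators, 1 fell under IleR and 1 under ValR, and of 6 other small heat shock protein genes 1 fell, under LeuR.

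Of 17 other ER folding genes 8 were lower and 0 higher under ValR, 1 lower and 0 higher under IleR, and 1 lower and 1 higher under LeuR. Pdia6, a protein disulfide isomerase, fell by 0.72 under ValR (adjusted p = 0.00199) and by 0.48 under IleR (adjusted p = 0.0435). Atf6, a sensor of ER stress, fell by 0.88 under LeuR and 0.58 under ValR (adjusted p = 0.0232 and 0.0456), and Sil1, an exchange factor of BiP, rose by 0.53 under LeuR (adjusted p = 0.0151). Both cold-inducible RNA-binding genes rose under IleR and ValR and neither was called under LeuR. Cirbp rose by 0.80 and 0.82 (adjusted p = 0.0423 and 0.0197), and Rbm3 by 0.48 and 0.87 (adjusted p = 0.0439 and 0.000666). In the same males, 7, 6 and 7 of 8 cerebellar markers were higher and 7, 4 and 8 of 8 forebrain markers lower under IleR, LeuR and ValR, and 5, 5 and 6 of 8 immediate early genes, which mark neuronal activity, were lower. Microglia markers were lower for 2, 0 and 4 of 5, astrocyte markers higher for 1, 0 and 1 of 5, and of 6 pan-neuronal markers 1 was higher and 1 lower under each diet. No oligodendrocyte, endothelial, choroid plexus, meninges, blood or liver marker was called by edgeR, with 3, 4 and 2 of 5 oligodendrocyte and 0, 5 and 0 of 5 blood markers at an unadjusted p under 0.05 for IleR, LeuR and ValR. The part of these cells and regions in the changes of the chaperone genes was not tested.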

How the data were processed

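RNA-seq libraries of 3xTg brain were grouped by diet and sex from the sample labels. Per the labels, reads were aligned to GRCm38.p5 and the authors deposited expected counts per Ensembl gene, with no normalization; the aligner is not given in the sources used here, and the submitters' processing notes name R 3.4.3, edgeR and limma. The RNA is described as from whole brain and as from the left hemisphere, with liver in a protocol label, and the library kit as polyA and as total RNA. The authors also deposited log2 fold changes, p-values and adjusted p-values for each diet against Control, which were not used. The methods state that outliers were removed after principal component analysis.

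Expected counts were rounded. A gene was kept when no library of some diet group of the sex was below 1 count. Kept genes were normalized by TMM and tested with edgeR 4.0.16 (glmQLFit, glmQLFTest, R 4.3.3) in 1 fit per sex, and in 1 fit of both sexes for the interaction. P-values were adjusted over all genes by Benjamini-Hochberg, with a threshold of 0.05. Log2 CPM used a prior count of 2. CPM was set per sex, so levels were not tested between sexes. Alternatives were limma 3.58.1 voom, DESeq2 1.42.0, RLE size factors, other filters, fits of 2 diets, the hindbrain score as covariate, both HSP70 copies added and leaving out each library. Tests were tested on simulated data. Symbols, matched to Ensembl IDs for 52083 of 55416 rows, came from a gene name table and coordinates from GENCODE M21. Fits on the hindbrain score, and leaving out its extreme libraries, were added after the data were seen. Pair correlations used permutation tests with 100000 resamples. The members, gene lists and tests were chosen with earlier results of these data known. Named beside the members were, from the 9 lists, the top 3 called genes in each direction per comparison with Control, by log2 fold change (mean log2 CPM of 1 or more), and the 5 genes most like Hspa1b and Hspa5. Of 73 pairs of libraries within a group, none agreed within counting error.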

Additional observations from a re-analysis of the deposited data

Results flagged for a closer look

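The decrease of Hspa1a under ValR differed between the sexes, by -1.15 on the log2 scale (edgeR interaction test, adjusted p = 0.0186). The call was lost with limma voom (adjusted p = 0.0520), with the hindbrain score in the fit, and without Control male 1, Control male 3 or ValR male 12 (adjusted p up to 0.0536), and it held in the other 34 fits that left out 1 library. In males the log2 fold change was -1.16 and all 4 ValR libraries were below all Control libraries. In females it was -0.03, with ranges of 12.8 to 22.4 CPM in ValR and 16.3 to 22.9 CPM in Control. As Control and restricted males did not overlap in the hindbrain score, diet and region sampled cannot be told apart here.

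Over 60 combinations of a member and a group of 4 to 6 libraries, 3 held a library far from the others by Dixon's test. This is about the share of 1 in 20 that chance gives. All 3 were ER chaperones in females. Hspa5 stood at 329.6 CPM in IleR 38, against 239.7 to 256.8 CPM in the other 4 libraries, and Hsp90b1 at 375.6 CPM in the same library, against 321.1 to 332.3 CPM. IleR 38 was also the highest IleR female for Hspa8, Hsp90aa1, Hspa1a, Hsph1 and Hspb1, but not for Hspa1b, Dnajb1 or Bag3. Hspa5 stood at 338.0 CPM in ValR 32, against 256.2 to 285.4 CPM in the other 5. The cause was not tested.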

How the results depend on the processing

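Against Control, 5 members were called in IleR males, 2 in LeuR males and 6 in ValR males, and 0, 0 and 0 once the hindbrain score entered the fit. In that fit the signs of 7 called values turned: Bag3 was at -0.33 under IleR, -0.012 under LeuR and -0.47 under ValR, Dnajb1 at 0.0557 under IleR and 0.0159 under ValR, and Hspa1a and Hspa1b at 0.0201 and 0.34 under ValR. The lowest unadjusted p of any member there was 0.158 under IleR, 0.218 under LeuR and 0.230 under ValR (edgeR). The turned values were thus not told apart from no change. The score did not overlap between Control and restricted males. Fitting only the 2 diets gave 0 calls for LeuR, and limma voom called Hspa1a and Hspa1b there in place of Hspa1b and Bag3. For ValR against LeuR in males, where 1 member was called, DESeq2 gave 3, the filter of 10 counts in 3 libraries 2, and the score covariate and the fit of only the 2 diets 0 each. For the difference between sexes, DESeq2 gave 1 call for IleR and 1 for LeuR where edgeR gave 0, and 4 for ValR where edgeR gave 1, and limma voom and the score covariate gave 0 for ValR. Leaving out 1 library gave 3 to 5 calls for IleR, 0 to 4 for LeuR, 5 to 7 for ValR and 0 to 1 for ValR against LeuR in males, and 0 to 1, 0 to 1 and 0 to 5 for the sex differences under IleR, LeuR and ValR. The count of correlated pairs in females was 23, with 26 after subtraction of diet means, 15 without TMM, 14 without the 2 libraries farthest from the median, 12 in males after subtraction of diet means, and 21 to 25 leaving out 1 library. The count of members with a slope on the score in females was 7, and 6 without LeuR 45. In females, and for IleR against LeuR and ValR against IleR in males, the alternatives run gave 0 calls throughout. Where not stated, the cause of a change was not tested. No paired analysis was possible because each library has a number that occurs in 1 group only. The number of libraries, 3 to 6 a group, limits the precision of each fold change.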

Other observations

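In LeuR females, none of 17 ER folding genes was called against Control by edgeR. The log2 fold change was above 0 for 15 and below 0 for 2, with a median of 0.15 against 0.00 over all genes, and 5 had an unadjusted p under 0.05, against 4.03% of all genes. These 5 were Sdf2l1 at 0.50, Creld2 at 0.43, Dnajc3 at 0.29, Manf at 0.27 and Dnajb11 at 0.15, each with an adjusted p of 0.968 in edgeR's quasi-likelihood test. They were named after their values were seen. Choroid plexus markers, also not called, stood at a median log2 fold change of 2.35 over 5 genes, 2 of them with an unadjusted p under 0.05, and their part was not tested.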
